A study of Mus musculus with 6 samples.

Results

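Neural stem cells from mice labelled homozygous for a changed Ecrg4 allele were compared with those labelled heterozygous, on 2 arrays per genotype. These 4 arrays are 4 of the 6 in the series. The other 2 carry cells labelled wild type and are given beside the comparison. All 6 arrays hold total RNA from cells of C57BL6 mouse brain at age P0, the day of birth. The cells grew untreated in DMEM/F12 medium that held heparin and the mitogens EGF and bFGF. The sources used here do not give the change made in the allele, nor do they say if a genotype's arrays hold RNA of different animals or cultures. The spread behind each p-value is thus that between single arrays and may be technical.

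Ecrg4 encodes augurin, a small secreted precursor that is cut into peptides. In the brain it is best known from the choroid plexus, and it has been linked to reduced proliferation and to senescence in several cell types, oligodendrocyte precursors among them. Neural stem cells divide under EGF and FGF, keep a radial glia-like program and can form neurons, astrocytes and oligodendrocytes.

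Intensities are 1-colour array signals on a linear scale, and each array has a median of 30 over its measured probes. A probe was compared where it had a value on all 4 arrays, which held for 20890 of 23466 probes. As a reference for background, the 95th percentile of 663 olfactory receptor probes was taken on each array, and it lay between 50.5 and 57.6. A probe above it on all 4 arrays is called bright, and a probe below it on all 4 is called dim. Arrays of 1 genotype correlated at r = 0.992 (heterozygous) and 0.993 (homozygous) across probes, which are not independent replicates, and the 4 pairs across the genotypes gave 0.982 to 0.985. Between 5.51% and 7.50% of probes lay over 2-fold apart in those cross-genotype pairs, against 2.54% within the heterozygous and 1.70% within the homozygous pair.

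The Ecrg4 probe, a check of the labels, read 345.5 and 373.9 on the heterozygous arrays and 1.4 and 1.3 on the homozygous arrays. The homozygous values lay far under the background reference, and the genotypes did not overlap. The measured log2 difference, homozygous minus heterozygous, was -8.06 ± 0.19 (SE of the limma fit, adjusted p = 0.000169), and with the homozygous arrays set at the background reference the transcript was at least 6.68-fold lower. The wild-type arrays read 112.9 and 154.9, between the others. Heterozygous arrays thus read above wild type, which the count of unchanged alleles would not give, and the genotype names below are those of the labels. Which part of the transcript the probe covers is not given. Ecrg4 lies on chromosome 1, and of the 20 nearest measured genes on each side 3 changed. These were Tbc1d8 (0.98 ± 0.16), Gulp1 (-1.68 ± 0.16, on a dim probe) and Col5a2 (-0.97 ± 0.14). Tbc1d8 exceeded the background reference on 1 heterozygous and both homozygous arrays. Across all named genes 2.63% changed.

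The label of the cells was checked against 18 measured markers of neural stem and progenitor cells, of which 15 were bright. The intermediate filament gene Nes read 778.2 and 752.6 on the heterozygous arrays and 1237.5 and 1310.9 on the homozygous arrays (0.73 ± 0.16, limma adjusted p = 0.0834). The EGF receptor gene Egfr read 1420.4 and 1376.0 against 1362.8 and 1204.5, and Pax6, a transcription factor of radial glia, read 177.1 and 164.8 against 140.6 and 160.7. Of the 18, 1 passed the limma test (5.56%, against 2.63% of all named genes). It was Notch1, a receptor that holds progenitors back from differentiation, which fell from 374.4 and 399.0 to 224.6 and 217.2 (-0.81 ± 0.14, adjusted p = 0.0487). Stem cell markers thus lay on both sides of 0, 10 above and 8 below, with a median log2 difference of 0.16 against 0.03 over all named genes. The Notch1 call was lost in 4 of the 11 alternatives other than leaving out an array, among them the fit of only the 4 arrays.

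In all, 506 of 20890 probes changed at a limma adjusted p under 0.05, which is 2.42% of those tested. Of these 237 (1.13%) were higher and 269 (1.29%) lower on the homozygous arrays. With 1 probe per gene, 391 of 14856 named genes changed (2.63%), 184 higher (1.24%) and 207 lower (1.39%). The median size of a called difference was 1.46 on the log2 scale, 441 of the 506 exceeded 2-fold and 106 exceeded 4-fold. Of the 506 probes 144 were bright, 48 of them higher and 96 lower, and 202 were dim, 117 of them higher and 85 lower. For 65 probes only the heterozygous arrays exceeded the background reference, and for 48 only the homozygous arrays did. Among all probes tested 54.2% had genotypes that did not overlap, so a lack of overlap by itself says little. The count fell without any of the 4 arrays: it was 5 without homozygous array 1, 4 without homozygous array 2, and 58 and 38 without heterozygous arrays 1 and 2.

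**Figure D1:**
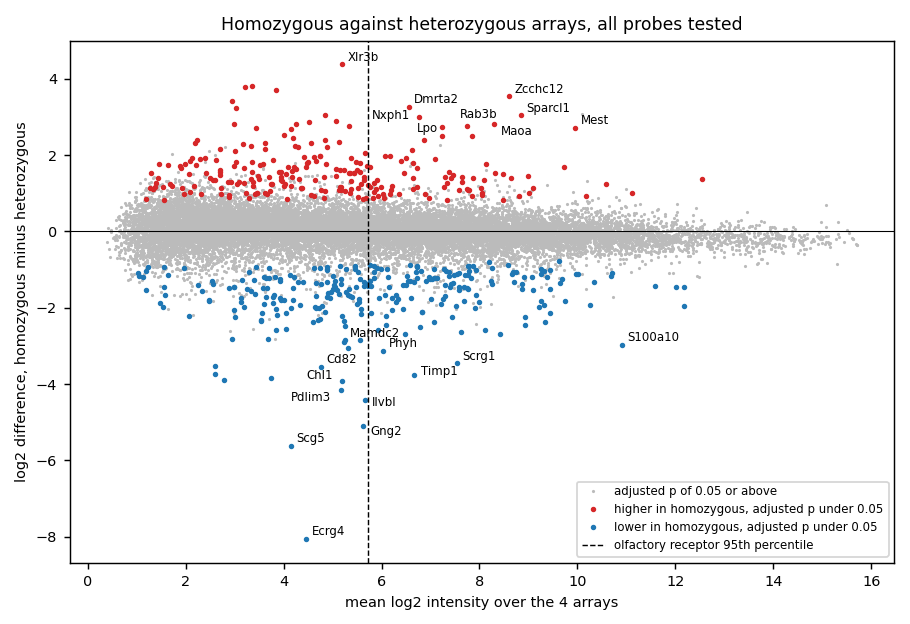
Each point is 1 of 20890 probes, with the mean log2 intensity over the 4 arrays on the horizontal axis and the log2 difference, homozygous minus heterozygous, on the vertical axis. Red and blue points passed a limma adjusted p of 0.05, 237 higher and 269 lower, and the dashed line marks the olfactory receptor 95th percentile; Ecrg4 lies lowest at -8.06.

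Among the genes that rose to above the background reference on the homozygous arrays was Xlr3b, an imprinted X-linked gene of a family with near-identical copies, which the probe may read together. Xlr3b read 10.4 and 6.2 on the heterozygous arrays and 192.1 and 144.7 on the homozygous arrays (4.38 ± 0.28, limma adjusted p = 0.00395), at least 3.19-fold higher. The wild-type arrays read 1192 and 1254, above both, so the heterozygous arrays stand lowest for this gene. Zcchc12, a zinc finger coactivator of BMP signalling that is also X-linked, read 134.2 and 95.9 against 1401 and 1242 (3.54 ± 0.21), with wild type at 1757 and 1566. Maoa, the X-linked enzyme that breaks down serotonin and noradrenaline, read 152.1 and 91.9 against 807.1 and 863.8 (2.82 ± 0.28), with wild type at 807.0 and 1089. For these 3 genes the homozygous arrays lay nearer to wild type than the heterozygous arrays did.

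A second set was higher on the homozygous arrays than on every array of the other genotypes. Mest, a paternally expressed imprinted gene of the hydrolase fold family, read 415.4 and 363.5 on the heterozygous arrays, 1381 and 1493 on the wild-type arrays and 2484 and 2600 on the homozygous arrays (2.71 ± 0.15, limma adjusted p = 0.00354). Rab3b, a small GTPase of regulated secretion, read 80.3 and 84.4, then 383.4 and 341.0 on wild type, then 567.0 and 559.8 (2.77 ± 0.15). Both genes formed 3 steps without overlap, with wild type in the middle. Car8, a carbonic anhydrase-related protein of the IP3 receptor, followed the same order: 86.6 and 107.5, 277.9 and 272.1, and 588.0 and 507.5 (2.50 ± 0.18). Kcnk1, a background potassium channel gene, read 56.3 and 72.8 against 407.2 and 316.8 (2.49 ± 0.20).

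Sparcl1, a secreted matrix protein of astrocytes and radial glia, read 128.4 and 198.3 on the heterozygous arrays and 1325 and 1301 on the homozygous arrays (3.04 ± 0.28, limma adjusted p = 0.00977). Wild type was lowest here, at 55.9 and 85.0. Nxph1, a secreted ligand of neurexins, read 38.4 and 38.8 against 312.2 and 302.1 and was at least 5.87-fold higher (2.99 ± 0.18). Dmrta2, a transcription factor of cortical progenitors, read 32.4 and 28.4 against 301.2 and 282.1, at least 5.57-fold higher (3.26 ± 0.21). Nxph1 and Dmrta2 thus lay under the background reference on the heterozygous arrays and well above it on the homozygous arrays. The peroxidase gene Lpo (2.74 ± 0.29) and the interferon-inducible GTPase gene Gbp4 (2.38 ± 0.18) rose as well. The heterozygous values of the last 3 genes lay under the background reference, and the increase was at least 1.52-fold for the microtubule-associated Map7d2, 3.96-fold for the ubiquitin ligase gene Rnf180 and 1.97-fold for the adaptor gene Bcar3. All 15 genes named in this direction were called in each of the 11 alternatives other than leaving out an array.

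Among the genes that fell, the secretory chaperone gene Scg5, whose product holds a prohormone convertase inactive until it reaches the granule, read 118.0 and 131.5 on the heterozygous arrays and 3.4 and 1.9 on the homozygous arrays. Its wild-type values were 4.4 and 5.2, so the heterozygous arrays stood apart from the other 4. Scg5 was at least 2.31-fold lower (measured difference -5.62 ± 0.29, limma adjusted p = 0.00345). Gng2, a G protein gamma subunit, read 248.7 and 335.7 against 8.7 and 8.3, with wild type at 59.6 and 61.4. It was at least 5.37-fold lower (-5.09 ± 0.19), and its 3 genotypes formed separate steps. Ilvbl, an enzyme of fatty acid alpha-oxidation in the endoplasmic reticulum, read 227.7 and 240.8 against 10.1 and 11.8, at least 4.35-fold lower (-4.42 ± 0.18). Scg5, Gng2, Ilvbl and Ecrg4 were the named genes still called when either homozygous array was left out.

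Timp1, an inhibitor of matrix metalloproteases, read 458.1 and 300.2 on the heterozygous arrays and 23.8 and 31.7 on the homozygous arrays, at least 6.89-fold lower (-3.75 ± 0.31, limma adjusted p = 0.00665). Wild type, at 29.8 and 46.3, was under the background reference as well. The adhesion molecule gene Chl1 read 126.0 and 160.8 against 8.7 and 10.3 (at least 2.64-fold lower), and the actin-associated Pdlim3 read 133.7 and 174.3 against 9.4 and 7.8 (at least 2.84-fold lower). Scrg1, a small secreted protein first described in scrapie-infected brain, read 561.2 and 667.9 against 77.6 and 40.2 (-3.45 ± 0.40), where homozygous array 2 lay under the background reference and array 1 above it. Agt, the angiotensin precursor made by astrocytes, read 489.8 and 493.3 against 95.4 and 66.6 (-2.62 ± 0.34), a call lost with the replicate block. Secreted products were thus found on both sides, with Sparcl1 and Nxph1 higher and Timp1, Scrg1 and Agt lower.

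S100a10, the partner of annexin A2 at the plasma membrane, had the largest decrease of the called bright genes. It read 5835 and 4941 on the heterozygous arrays and 626.7 and 752.9 on the homozygous arrays, a 7.82-fold decrease (95% interval 5.67 to 10.8, limma adjusted p = 0.00395). The wild-type arrays, at 2874 and 3531, lay between them. Its partner Anxa2 read 2693 and 2237 against 1104 and 1202 (-1.09 ± 0.17, adjusted p = 0.0346), and wild type, at 2942 and 2647, overlapped heterozygous. S100a11 (-1.51 ± 0.16) and S100a13 (-1.54 ± 0.23) fell too, so 4 of 21 measured S100 and annexin genes fell and 0 rose (1.39% of all named genes fell), and 17 of the 21 lay below 0 with a median of -1.09. The list was put together after these values were seen.

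Phyh, the peroxisomal enzyme that starts the breakdown of phytanic acid, read 185.1 and 202.7 on the heterozygous arrays and 26.4 and 18.6 on the homozygous arrays, at least 3.60-fold lower (-3.13 ± 0.21, limma adjusted p = 0.00400). Wild type, at 26.8 and 29.9, was close to homozygous. Hacl1, a lyase of the same alpha-oxidation pathway, read 336.9 and 341.2 against 134.0 and 115.1 (-1.45 ± 0.21). The membrane protein gene Pxmp4 (-1.91 ± 0.26), the fatty acid enzyme gene Pecr (-1.13 ± 0.19) and the oxidase gene Pipox (-1.07 ± 0.18) fell as well. Of 45 measured peroxisome genes 5 fell and 0 rose, against 1.39% lower over all named genes, with a median of -0.11, in a list also chosen after the values were seen. The remaining named genes that fell had homozygous values under the background reference, and the decrease was at least 1.72-fold for Cd82, 1.89-fold for Mamdc2, 4.18-fold for Cdc42ep3 and 2.77-fold for Vit. The Cd82 call was lost with a pseudocount of 50 and with the replicate block, and the Cdc42ep3 call when blank cells were filled.

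**Figure D2:**
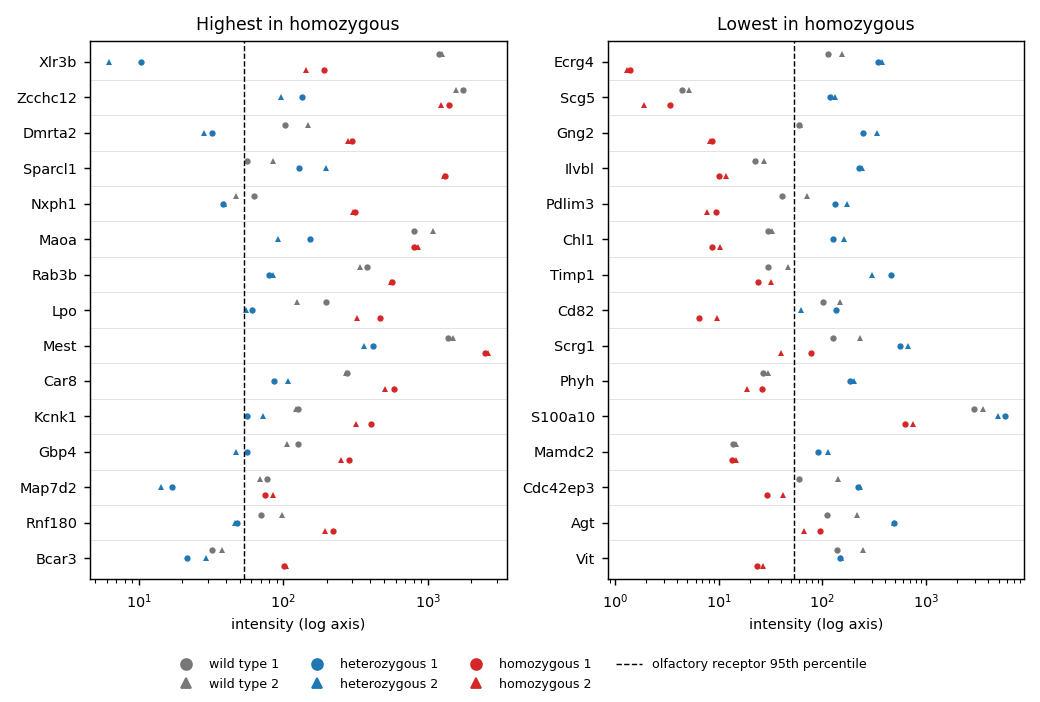
Intensities on a log axis of the 15 genes highest and the 15 lowest on the homozygous arrays, with 1 point per array (circles array 1, triangles array 2) coloured by genotype; no mean is drawn. The red and blue points of a gene do not overlap, as the choice of genes required, while the grey wild-type points lie between them, beside either, or beyond, as for Xlr3b and Vit.

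The position of wild type was read for the 500 changed probes with both wild-type values. For 307 of them the wild-type arrays lay between the genotypes and apart from all 4 other arrays, against 1251 of 20434 among all probes tested. For 109 they lay apart from the homozygous arrays on the heterozygous side, overlapping heterozygous or beyond it. For 84 they lay apart from the heterozygous arrays on the homozygous side, overlapping homozygous or beyond it. Among all 20434 probes these counts were 7068 and 5298. For a further 6817 of all probes neither held, against 0 of the changed probes. The wild-type mean was nearer to heterozygous for 58.2% of the changed probes, and for 53.9% of all probes. No test was made of these shares, since the same arrays chose the probes. A call already requires a gap between the genotypes, which leaves room for wild type between them.

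Markers of cell types that such cultures can hold were examined next. These lists, the stem cell markers above and the lists below were chosen with earlier results of these data known. Their called shares may be raised by that choice and are not independent of these data. In RNA from whole cultures fewer cells of a type and less RNA per cell cannot be told apart. Of 22 measured astrocyte markers 1 rose and 3 fell (18.2% called, against 2.63% of all named genes). Of the 22, 16 lay below 0 and the median was -0.48, against 0.03 over all named genes. Cst3, a secreted protease inhibitor, fell from 7365 and 7844 to 2770 and 2799 (-1.45 ± 0.15, limma adjusted p = 0.0133). The metallothionein gene Mt2 fell from 6754 and 6809 to 3156 and 1968 (-1.44 ± 0.25, adjusted p = 0.0475), and the water channel gene Aqp4 from 66.8 and 45.5 to 14.3 and 8.0 (-2.37 ± 0.37). The call of Mt2 was lost in 4 alternatives and that of Aqp4 in 2, beside those that leave out an array. Sparcl1 was the member that rose. Ndrg2 read 669.2 and 471.9 against 159.1 and 69.2 and missed the threshold (adjusted p = 0.0518), and Gfap, the defining filament of mature astrocytes, was dim on every array, between 3.6 and 7.3. The summed intensity of the list was 65927 and 67829 on the heterozygous arrays, 49954 and 37848 on the homozygous arrays and 46104 and 56028 on wild type.

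Among 19 measured neuron markers 2 rose and 0 fell, where 1.24% of all named genes rose. Of the 19, 15 lay above 0 and the median was 0.24, but 13 were dim. Ina, a neuronal intermediate filament, read 33.9 and 34.1 on the heterozygous arrays and 137.1 and 130.3 on the homozygous arrays, at least 2.55-fold higher (1.97 ± 0.14, limma adjusted p = 0.00469). Elavl4, an RNA-binding protein of early neurons, read 113.6 and 94.1 against 254.6 and 244.3 (1.27 ± 0.19, adjusted p = 0.0332). The Elavl4 call was lost with blank cells filled and with the replicate block. The defining neuron genes Tubb3 (34.3 to 52.3 over the 6 arrays), Dcx (13.1 to 30.8) and Map2 (31.7 to 45.1) stayed under the background reference. The summed intensity of the neuron list was 4655 and 5904 on the heterozygous arrays and 6140 and 6163 on the homozygous arrays. On the wild-type arrays it was 3084 and 2917, under both other genotypes. The part of neurons in the calls of Ina and Elavl4 was not tested.

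Among markers of other cell types, 2 of 13 oligodendrocyte lineage (15.4%), 1 of 10 microglia and 1 of 15 mural and fibroblast markers (6.67%) passed. These shares exceeded the 2.63% of all named genes but rest on 1 or 2 genes each. The medians were 0.21 (oligodendrocyte lineage), 0.27 (microglia), -0.09 (mural and fibroblast) and 0.29 (endothelial). The endothelial median was -0.39 over the 2 members above the olfactory receptor level. The other medians were 0.08 (ependymal and choroid plexus, below 0 with cyclic loess) and -0.06 (neural crest). Of 13 oligodendrocyte lineage markers the myelin lipid enzyme gene Ugt8a and the myelin gene Mobp rose on dim probes, while the lineage factors Olig1, at 7554 and 8681 against 10348 and 8506, and Olig2, at 3441 and 4183 against 2949 and 2576, did not pass. Of 10 microglia markers 9 were dim, and the dim purinergic receptor gene P2ry12 rose (1.62 ± 0.22). Of 15 mural and fibroblast markers 12 were dim, and the smooth muscle actin gene Acta2 fell from 277.5 and 284.6 to 88.0 and 118.5 (-1.46 ± 0.23, limma adjusted p = 0.0353). Its wild-type values of 1230 and 894.8 were above both, and its call was lost with blank cells filled and with the replicate block. None of 7 endothelial markers (led by Egfl7, 197.6 and 232.3 against 79.4 and 100.5), 8 ependymal and choroid plexus markers (led by Foxj1, 176.9 and 170.7 against 128.2 and 170.3) and 7 neural crest markers (led by Ednrb, 706.9 and 474.0 against 676.1 and 551.7) passed. The sex of the animals is not given in the labels. The Y-linked Kdm5d read 121.7 and 109.7 against 68.1 and 82.5 (adjusted p = 0.129), and the X-linked Eif2s3x, which escapes X inactivation, rose from 146.2 and 154.4 to 351.5 and 292.1 (1.09 ± 0.16, adjusted p = 0.0313). On chromosome X 18 of 496 named genes changed, 3.63% against 2.63% over all, and a difference in the sex of the cells was not tested.

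**Figure D3:**
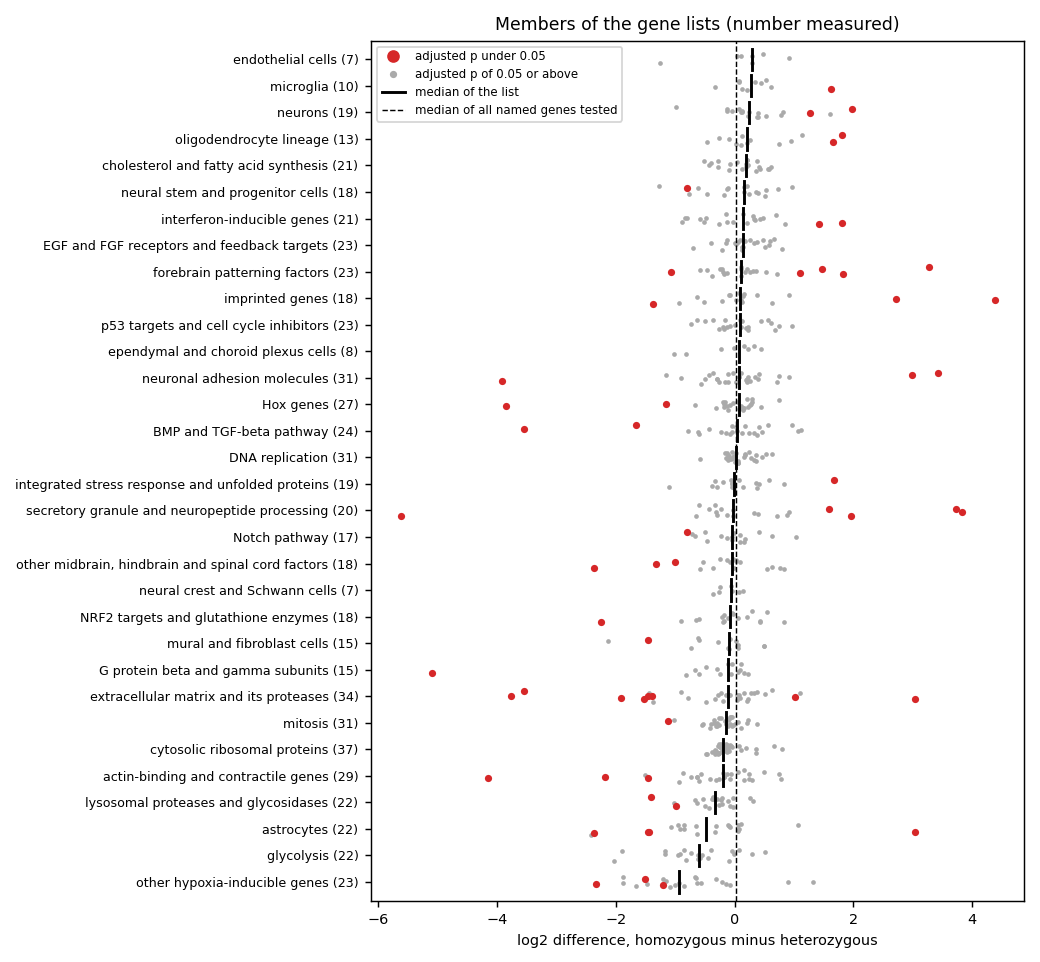
Log2 differences, homozygous minus heterozygous, of the measured members of 32 gene lists, with the number measured in brackets. Red points passed a limma adjusted p of 0.05, black bars are list medians, and the dashed line is the median of all named genes, 0.03; the medians run from -0.93 for the other hypoxia-inducible genes to 0.29 for the endothelial markers.

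Glycolytic genes and other genes induced by low oxygen through HIF, the hypoxia-inducible transcription factor, had the lowest medians of the 32 lists in the plot of list medians. Of 23 measured hypoxia-inducible genes outside glycolysis 3 fell and 0 rose, where 1.39% of all named genes fell. Of the 23, 21 lay below 0, and the median was -0.93. Of 22 glycolysis genes 0 passed by limma in either direction, while 19 lay below 0 and the median was -0.60. In the fit of only the 4 arrays 3 glycolysis genes and 5 of the others passed, and over all alternatives the counts ran from 0 to 8 and from 0 to 9. The medians kept their sign in all 17 alternatives, from -1.18 to -0.59 for the hypoxia-inducible and from -0.72 to -0.48 for the glycolysis genes.

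Ndrg1, a stress- and hypoxia-induced gene, read 52.6 and 64.2 on the heterozygous arrays and 11.7 and 11.4 on the homozygous arrays, at least 1.08-fold lower (measured difference -2.33 ± 0.20, limma adjusted p = 0.00741). Mxi1, an antagonist of Myc, read 917.4 and 679.6 against 255.3 and 302.5 (-1.51 ± 0.24, adjusted p = 0.0372). Rcor2, a subunit of the REST corepressor complex, read 1068 and 956.7 against 452.0 and 428.1 (-1.20 ± 0.16, adjusted p = 0.0243), with wild type at 1032 and 1224. In these 3 genes every homozygous value lay under every value of the other genotypes. Blank cells filled with the lowest value of each array ended the Mxi1 call, and Rcor2 kept its call there. The replicate block ended the calls of both Mxi1 and Rcor2.

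Members that missed the threshold included the lactate exporter gene Slc16a3, at 595.9 and 570.8 against 147.6 and 165.6 (-1.90 ± 0.36, limma adjusted p = 0.0581), and the pyruvate dehydrogenase kinase gene Pdk1, at 362.4 and 549.0 against 145.6 and 102.1 (-1.87 ± 0.44, adjusted p = 0.0990). The triosephosphate isomerase gene Tpi1 read 7904 and 8747 against 4111 and 3334 (adjusted p = 0.0521). The lactate dehydrogenase gene Ldha read 19205 and 20876 against 11686 and 11023, Eno1 15337 and 20856 against 11331 and 10276, and Pgam1 25386 and 31577 against 19533 and 19056. On these probes the genotypes did not overlap. Adm, the gene of the vasodilator adrenomedullin and a standard HIF target, went the other way, at 910.7 and 599.3 against 1839 and 1835 (1.31 ± 0.27, adjusted p = 0.0678). Car9, another standard target, was dim on every array.

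The wild-type arrays differed between themselves on these genes. Relative to each gene's mean over the 6 arrays, the hypoxia-inducible list had a mean log2 level of 0.30 and 0.26 on the heterozygous arrays, -0.42 and -0.70 on the homozygous arrays, and -0.08 and 0.64 on wild-type arrays 1 and 2. For glycolysis these means were 0.14 and 0.33, -0.30 and -0.47, and -0.12 and 0.42. Homozygous arrays were thus lowest in both lists, but the wild-type arrays lay further from each other than wild-type array 1 lay from either homozygous array. Pdk1, for example, read 233.7 and 557.5 on the wild-type arrays. Culture density and oxygen are not given in the labels, and their part was not tested.

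HIF binds the core ACGTG or GCGTG in DNA, and promoters of 4 members with large differences are shown with those letters in capitals. Each runs from 250 bases before to 50 after the first start listed in RefSeq, 5′ to 3′ on the gene's strand. Capitals mark ACGTG and GCGTG and, read on the other strand, CACGT and CACGC.
Mxi1, GRCm38.p6 chr19:53310256-53310555, plus strand: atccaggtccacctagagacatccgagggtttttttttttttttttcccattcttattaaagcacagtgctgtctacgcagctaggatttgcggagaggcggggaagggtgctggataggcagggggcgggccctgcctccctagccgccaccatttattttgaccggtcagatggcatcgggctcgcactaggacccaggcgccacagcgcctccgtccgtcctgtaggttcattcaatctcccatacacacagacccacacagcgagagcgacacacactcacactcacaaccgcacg
Rcor2, GRCm38.p6 chr19:7267144-7267443, plus strand: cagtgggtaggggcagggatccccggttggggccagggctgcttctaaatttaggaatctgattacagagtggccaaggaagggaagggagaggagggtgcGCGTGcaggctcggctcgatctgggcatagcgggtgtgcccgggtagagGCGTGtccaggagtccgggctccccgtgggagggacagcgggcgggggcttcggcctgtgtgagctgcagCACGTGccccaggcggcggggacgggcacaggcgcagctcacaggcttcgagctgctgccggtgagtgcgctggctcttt
Slc16a3, GRCm38.p6 chr11:120948817-120949116, plus strand: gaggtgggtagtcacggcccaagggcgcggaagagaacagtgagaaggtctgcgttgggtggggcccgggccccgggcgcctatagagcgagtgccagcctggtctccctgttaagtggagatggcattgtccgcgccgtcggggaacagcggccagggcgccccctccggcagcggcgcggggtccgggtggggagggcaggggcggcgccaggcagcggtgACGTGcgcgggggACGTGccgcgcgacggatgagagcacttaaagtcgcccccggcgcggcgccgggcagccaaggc
Pdk1, GRCm38.p6 chr2:71872974-71873273, plus strand: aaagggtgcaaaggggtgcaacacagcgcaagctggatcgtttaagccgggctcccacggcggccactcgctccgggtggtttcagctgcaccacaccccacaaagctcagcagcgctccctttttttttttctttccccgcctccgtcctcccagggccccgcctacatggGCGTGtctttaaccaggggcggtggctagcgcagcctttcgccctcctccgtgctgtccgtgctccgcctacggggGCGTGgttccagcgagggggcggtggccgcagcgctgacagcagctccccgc
The Mxi1 window had 0 matches, that of Rcor2 4 and those of Slc16a3 and Pdk1 2 each. Mxi1 has 3 listed starts and Pdk1 2, and the windows of their other starts are not counted here. In Rcor2 an overlapping pair forms CACGTG, which is also the E-box bound by Myc family proteins. Of 19 hypoxia-inducible genes with a listed promoter 16 (84.2%) held a match, and of 21 glycolysis genes 15 (71.4%). The share was 56.8% over 11893 named genes and 43.8% over all 32851 listed starts. It was 70.4% for mitosis and 70.0% for ribosomal protein genes, which were not matched to these lists in base composition. A match is a description of letters, not a bound site.

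**Figure D4:**
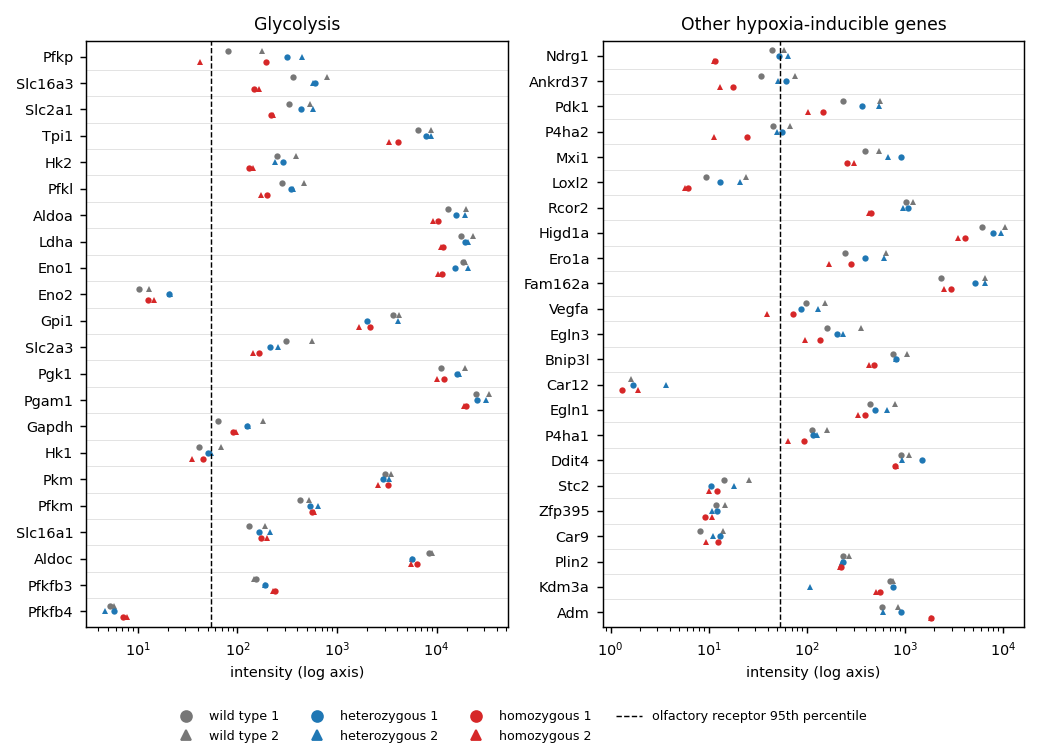
Intensities on a log axis of the 22 glycolysis genes and 23 other hypoxia-inducible genes, with 1 point per array (circles array 1, triangles array 2) coloured by genotype, sorted by log2 difference. Red homozygous points lie left of the blue heterozygous points for most genes, the grey wild-type points spread widely, and Adm, at the bottom right, runs the other way.

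Single genes of regional identity changed in both directions. Of 23 measured forebrain patterning factors 4 rose and 1 fell, against 2.63% changed over all named genes. Beside Dmrta2 these were Dlx1 (1.83 ± 0.20) and Dlx2 (1.47 ± 0.14), homeobox genes of the ventral forebrain, and Emx2 (1.09 ± 0.16), a homeobox gene of the dorsal forebrain, while the nuclear receptor gene Nr2f2 fell (-1.07 ± 0.15). Dlx1 read 13.3 and 10.8 on the heterozygous arrays against 41.9 and 43.2, and 42.6 and 56.7 on wild type. Emx2 read 23.3 and 24.9 against 53.9 and 49.1, and 16 and 19.2 on wild type. Dlx1 and Dlx2 were dim on every array and Emx2 stayed near the background reference, so Dmrta2 was the member that rose clearly above it.

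Of 18 factors of the midbrain, hindbrain and spinal cord other than Hox genes 0 rose and 3 fell, all of the Iroquois family. Over all named genes 1.39% fell. Irx1 read 94.1 and 77.8 on the heterozygous arrays, 73.0 and 75.8 on wild type and 17.5 and 15.9 on the homozygous arrays, at least 1.59-fold lower (-2.36 ± 0.16, limma adjusted p = 0.00447). Irx5, bright on all 6 arrays, read 201.5 and 180.4, 169.7 and 168.6, and 95.8 and 95.1 (-0.998 ± 0.15, adjusted p = 0.0304). In both the homozygous arrays stood below heterozygous and wild type alike. Irx2 fell on a dim probe (-1.32 ± 0.21). Of 27 measured Hox genes 2 fell and 0 rose (1.39% of all named genes fell), and 22 of the 27 were dim. Hoxa5 read 46.2 and 55.2 against 3.9 and 3.2 (-3.84 ± 0.29, adjusted p = 0.00500), with wild type at 13.5 and 7.7, so 1 of its 6 values exceeded the background reference. Hoxa2 fell from 4.0 and 5.4 to 2.0 and 2.2 on a dim probe, a call lost in 6 of 10 alternatives other than leaving out an array, the fit of only the 4 arrays among them. List medians, 0.11 for forebrain, 0.07 for Hox and -0.05 for the others, were near that of all named genes. Over the 17 alternatives they ran from -0.15 to 0.26, from -0.02 to 0.16 and from -0.58 to -0.01. The forebrain median was below 0 over members above the olfactory receptor level. The brain region from which the cells came is not given beyond brain.

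Genes of regulated secretion and of neuronal adhesion were also found on both sides. Of 20 measured secretory granule genes 4 rose and 1, Scg5, fell, with a median of -0.03, where 2.63% of all named genes changed. Cadps, a priming factor of dense-core vesicles, read 2.4 and 3.1 against 44.1 and 33.6 (3.82 ± 0.28, limma adjusted p = 0.00488), and Nptx2, a secreted pentraxin of synapses, read 5.3 and 3.0 against 47.6 and 57.9 (3.72 ± 0.30). The granins Scg2 (1.96 ± 0.27) and Chga (1.59 ± 0.19) rose on dim probes. Apart from Nptx2 on homozygous array 2, none of the 4 exceeded the background reference, so their fold sizes are not measured well. Of 31 neuronal adhesion molecules Nxph1 and the dim Lrfn2 (3.42 ± 0.30) rose and Chl1 fell, with a median of 0.07. That median was below 0 over members above the olfactory receptor level.

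**Figure D5:**
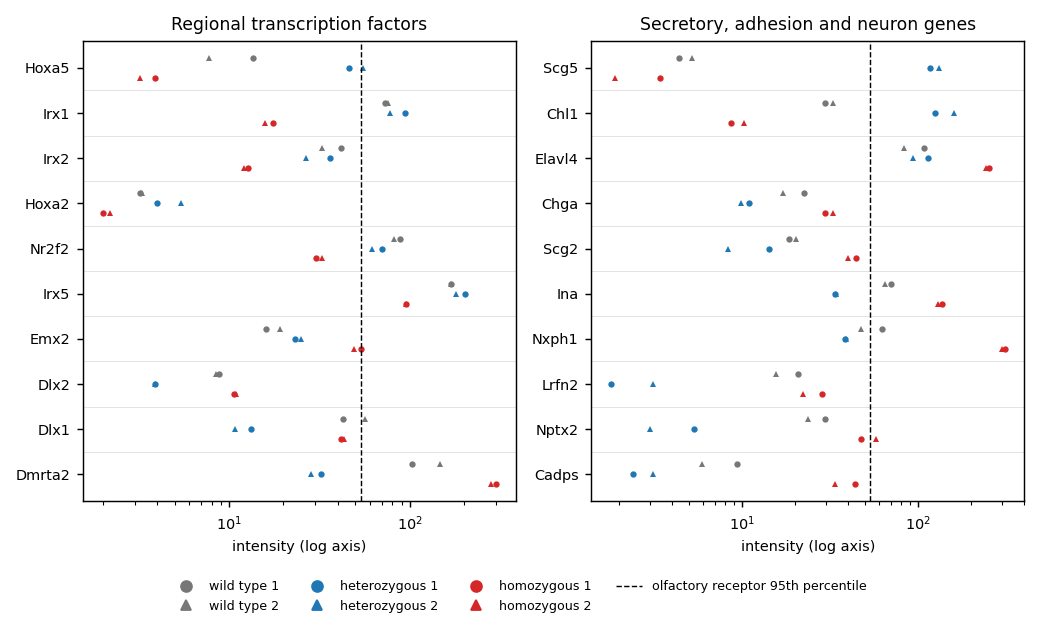
Intensities on a log axis of called members of the regional transcription factor lists (left) and of the secretory granule, neuronal adhesion and neuron lists (right), with 1 point per array (circles array 1, triangles array 2) coloured by genotype. Most points lie left of the dashed olfactory receptor 95th percentile. Dmrta2, Nxph1 and Ina exceed it on both homozygous arrays and Scg5, Chl1, Irx1 and Nr2f2 on both heterozygous arrays. Elavl4 and Irx5 exceed it on the arrays of both these genotypes.

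The extracellular matrix list had 8 called members of 34 measured, 2 higher and 6 lower, or 23.5% against 2.63% over all named genes. As the list was chosen with earlier results known, its share may be raised by that choice. The laminin chain gene Lamb2 fell from 867.8 and 993.4 to 339.1 and 307.3 (-1.52 ± 0.16, limma adjusted p = 0.0127), with wild type at 859.9 and 953.1 beside heterozygous. Timp1 fell and Sparcl1 rose, as given above. Tgfbi (-3.54 ± 0.34), Col6a1 (-1.91 ± 0.22), Thbs2 (-1.45 ± 0.23) and Lama4 (-1.38 ± 0.23) fell and Lama1 (1.01 ± 0.16) rose, all on dim probes. The median of the list was -0.10, and most of its members did not pass. In the actin list 3 of 29 fell and 0 rose, against 1.39% lower over all named genes. Pdlim3 and Acta2 were joined there by the dim Mical1 (-2.19 ± 0.23), a monooxygenase that takes actin filaments apart. The calls of Lama1, Lama4 and Thbs2 were each lost in 4 or more alternatives other than leaving out an array.

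Genes of the cell cycle differed in single members. Ccnd2, the D-type cyclin that carries progenitors into S phase, read 3731 and 3709 on the heterozygous arrays, 5818 and 6042 on wild type and 9966 and 9232 on the homozygous arrays (1.37 ± 0.14, limma adjusted p = 0.0126). The 3 genotypes formed steps without overlap. Ccnb2, a mitotic cyclin, fell from 1650 and 1409 to 755.2 and 658.3 (-1.11 ± 0.18, adjusted p = 0.0369), and so did the CDK-activating phosphatase gene Cdc25b (557.9 and 630.5 to 256.9 and 294.4). The Ccnb2 call was lost with blank cells filled and with the replicate block. Of 31 mitosis genes 1 fell and 0 rose (1.39% of all named genes fell), 25 lay below 0 and the median was -0.14. Of 31 DNA replication genes 0 passed, with a median of 0.03, and the replication clamp gene Pcna read 10364 and 11939 against 10002 and 10418. Of 23 p53 targets and cell cycle inhibitors, a group that includes senescence genes, 0 passed, with a median of 0.08. In a list of D and E cyclins and their partners 1 of 10 was higher (Ccnd2) and 2 lower (Cdc25b and the phosphatase gene Cdkn3). That list was chosen after the values were seen, and 2.63% of all named genes changed.

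Signalling lists had called shares of 16.7% (imprinted), 8.33% (BMP and TGF-beta), 6.67% (G protein), 5.88% (Notch) and 0% (EGF and FGF). The share over all named genes was 2.63%. In the imprinted list of 18, Mest and Xlr3b rose and Ndn, a growth suppressor of neurons, fell from 284.0 and 269.7 to 111.2 and 103.1 (-1.37 ± 0.16, limma adjusted p = 0.0157). In the BMP and TGF-beta list of 24, Tgfb3 fell from 62.6 and 81.2 to 22.6 and 22.4 and Tgfbi fell on a dim probe. In the Notch list of 17, Notch1 alone passed. Of 23 receptors and feedback targets of EGF and FGF, the mitogens in the medium, 0 passed, and the median was 0.14, with Dusp6 at 1845 and 2311 against 2244 and 2301. Of 15 G protein beta and gamma subunits Gng2 alone passed. The medians were 0.09 for the imprinted, 0.04 for the BMP and TGF-beta, -0.04 for the Notch and -0.10 for the G protein list. That of the BMP and TGF-beta list turned below 0 under median centring, quantile and cyclic loess normalization. Over members above the olfactory receptor level the imprinted median was -0.07, and that of the BMP and TGF-beta list was below 0 too.

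Stress and metabolic lists had called shares of 9.52% (interferon), 9.09% (lysosomal), 5.56% (NRF2), 5.26% (stress response) and 0% (cholesterol and ribosomal). The share over all named genes was 2.63%. Gsta4, a glutathione transferase of lipid peroxidation products, fell from 1040 and 1092 to 281.0 and 181.2 (-2.24 ± 0.26, limma adjusted p = 0.0159) and was the called member of 18 NRF2 and glutathione genes. Ddit4l, an inhibitor of mTOR signalling, rose from 62.8 and 56.6 to 193.4 and 186.6 (1.67 ± 0.21) and was the called member of 19 stress response genes, with wild type at 8.8 and 6.1. Of 21 interferon-inducible genes Ifit2 (1.81 ± 0.16) and Cxcl10 (1.42 ± 0.18) rose on dim probes. The medians were -0.08 for the NRF2, -0.02 for the stress response and 0.14 for the interferon list. The first and second of these turned above 0 under quantile and cyclic loess normalization. The interferon median was -0.14 over members above the olfactory receptor level, and 15 of the 21 members were dim. The cathepsin genes Ctsz (227.7 and 292.3 to 116.3 and 80.6) and Ctsc (227.8 and 207.4 to 101.1 and 119.2) fell. Wild type, at 38.7 and 47.2 for Ctsz and 27.5 and 26.2 for Ctsc, lay under both genotypes and under the background reference. The Ctsz and Ctsc calls were lost in the fit of only the 4 arrays, with blank cells filled and with the replicate block. Of 22 lysosomal enzyme genes 20 lay below 0, with a median of -0.33. Of 21 cholesterol and fatty acid synthesis genes 0 passed, with a median of 0.20. Of 37 ribosomal protein genes 0 passed and 30 lay below 0, with a median of -0.19 that turned to at most 0.01 under quantile and cyclic loess normalization.

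Several bright genes outside the lists changed as well and were chosen after their values were seen. The adaptor gene Skap2 fell from 1467 and 1461 to 311.5 and 257.5 (-2.37 ± 0.16, limma adjusted p = 0.00438), and the neuritin gene Nrn1, a neurite growth factor, from 1110 and 1385 to 380.3 and 277.0 (-1.93 ± 0.25). Dbx2, a homeobox gene of intermediate neural tube progenitors, fell from 384.1 and 487.9 to 173.4 and 108.9 (-1.66 ± 0.26). On the other side, Cd24a, a surface protein of neuroblasts and transit-amplifying cells, rose from 319.3 and 291.9 to 814.6 and 871.9 (1.46 ± 0.16), and Igfbp3, a carrier of insulin-like growth factors, from 1063 and 922.0 to 2318 and 2393 (1.25 ± 0.17). The chemokine gene Ccl2 rose from 127.9 and 129.4 to 306.7 and 320.0 (1.28 ± 0.20), where wild type, at 374.1 and 264.3, overlapped the homozygous arrays. The innate immune sensor adaptor gene Sting1 rose from 104.6 and 142.8 to 281.0 and 386.0 (1.43 ± 0.23).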

How the data were processed

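Total RNA was extracted on RNeasy columns, amplified to amino allyl aRNA and coupled to a dye, per the labels' protocols. The labels also give biotin, and this disagreement could not be settled. The deposited values are 1-colour intensities on a linear scale. Each column has a median of 30, from which scaling by the authors to a common median was inferred. The sources used here name no scanner, no background correction and no rule for blank cells. Scanner files were not used here.

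Intensities were log2-transformed without a pseudocount. The model used limma 3.58.1 (lmFit, eBayes; R 4.3.3) on the 6 arrays of the 3 genotypes, with 3 residual and 3.21 prior degrees of freedom. The contrast was homozygous minus heterozygous, two-sided, over 20890 probes, with Benjamini-Hochberg adjustment and a threshold of 0.05. Errors are standard errors of that fit. Bounds written as at least a given fold set the lower genotype at the olfactory receptor 95th percentile. Of 23466 probes, 2576 were blank on at least 1 of the 4 arrays and were not tested. The 207 probes blank on both heterozygous and measured on both homozygous arrays, and the 71 of the opposite kind, held 0 above that percentile on both measured arrays. The number of arrays limits the precision.

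Symbols came from the platform's annotation (16625 probes with 1 symbol, 0 with several, 6841 unnamed) and were updated with the synonyms in mouse RefSeq (GRCm38.p6), where 3943 were replaced, 12620 stood as they were, and 59 ambiguous and 3 unmatched symbols were kept. A list took 1 probe per gene, that of highest mean. Lists are described by counts and medians, with no list test.

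Named genes are Ecrg4, the 15 highest and 15 lowest differences among changed probes that did not overlap and whose higher genotype exceeded the olfactory receptor percentile on both arrays, leaving out predicted genes, and the changed members of the lists (for lists with none, up to 3 of highest level). Members and lists were chosen with earlier results of these data known. Alternatives were other pseudocounts (16 and 50), probe filters, centring, quantile and cyclic loess normalization, priors, a replicate block, and leaving out each array. In simulated data of this comparison with 20890 probes, 50 probes each were changed by 0.5, 1, 2 and 3 log2 units. The fit recovered 0%, 28%, 68% and 92% of them, with 1 of 95 calls on unchanged probes. The simulated spreads were drawn at random across probes, without a tie to intensity, and fewer probes were changed than were called in the data. These shares may thus not carry over to the real comparison.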

Additional observations from a re-analysis of the deposited data

How the results depend on the processing

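The number of changed probes depended on the processing, and the cause was not tested. Against 506 (237 higher, 269 lower), it was 1350 (587 and 763) with a pseudocount of 16, 953 (431 and 522) with 50, 1009 (385 and 624) over the 9322 probes above the olfactory receptor level, 1359 (566 and 793) with a robust prior that follows intensity, and 320 (163 and 157) with blank cells filled. Cyclic loess gave 426 lower. Leaving out 1 array gave between 4 and 589 probes, 0 to 240 higher and 4 to 349 lower, and the fit of only the 4 arrays gave the same 589 as leaving out a wild-type array, since a lone array adds nothing to the spread. With the replicate block it was 200 (98 and 102), but the numbers were not taken to pair the samples (r of deviations between -0.08 and 0.02 over the 3 genotype pairs), although immediate early genes differed by number. The wild-type position, as the share of changed probes with wild type nearer heterozygous (58.2%), was 63.1% and 65.3% with the pseudocounts, 64.7% above the olfactory receptor level, 50% with the replicate block, and 46.6% to 60% without 1 array. Ecrg4 kept its call in all 17 alternatives (-8.12 to -3.0). Of 74 named genes 0 reversed in any alternative; 71 and 64 kept their calls with the pseudocounts, 46 with the replicate block, 56 with blanks filled, 28 and 23 when heterozygous array 1 or 2 was left out, and 4 when either homozygous array was. The replicate block also ended the calls of Gsta4, Ndn, Nr2f2, Irx5, Eif2s3x, Scg2, Cxcl10 and P2ry12. Calls of Emx2, Irx2, Tgfb3 and Mobp were lost both with the block and with blank cells filled. A pseudocount of 50 ended those of Dlx2, Tgfbi, P2ry12, Irx2 and Mobp. With 2 arrays a genotype, changes of 1 log2 unit or less were often not detectable, and sizes of dim probes depend on an unknown background.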

Other observations

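The immediate early genes, which respond to growth factors within minutes, differed between the arrays of each genotype. The list was chosen after the values were seen. The transcription factor gene Fos read 271.9 and 903.4 on wild-type arrays 1 and 2, 281.4 and 1243 on heterozygous arrays 1 and 2, and 240.6 and 3210 on homozygous arrays 1 and 2. The nuclear receptor gene Nr4a1 read 154.4 and 434.3, 125.5 and 440.5, and 125.3 and 1892 in the same order. In each genotype the array numbered 2 was the higher, with the widest gap in homozygous. Of 14 measured immediate early genes 11 were higher on the array numbered 2 in all 3 genotypes, against 2680 of 20434 probes overall (13.1%). Only 4 of the 20434 probes were over 2-fold higher on array 2 in all 3 genotypes, those of Fos, Nr4a1, the matricellular gene Ccn1 and 1 unnamed probe, and 0 were over 2-fold lower. Between homozygous and heterozygous 0 of the 14 passed the limma test, and Fos had a log2 difference of 0.57 ± 1.33. What the numbers 1 and 2 stand for is not given in the labels.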
